A study of Mus musculus with 16 samples.

Results

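Wild type (WT) mice kept for 30 days on a high cholesterol diet were compared with WT mice kept on regular chow, by the RNA of their livers. That diet contained 2% cholesterol together with 0.5% sodium cholate, the salt of a bile acid, and the effects of the 2 additions cannot be told apart. The 8 arrays labelled WT, 4 high cholesterol and 4 chow, were chosen by their titles out of the 16 arrays of the series. The other 8 arrays came from conditional c-Met knockout (KO) livers on the same diets. They enter here in a comparison near the end, in fits of all 16 arrays, and beside the background probes and the values of Tpmt. All mice carried the mixed background 129SV/C57BL/6. Whether each array was a separate animal is not stated in the labels, so p-values measure the spread between these samples. RNA was hybridised to Illumina bead arrays, in which a probe's brightness stands for a transcript's abundance.

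The liver makes bile acids from cholesterol and sends both into bile, and it also makes cholesterol itself. Bile acids act on the receptor FXR, which lowers the enzymes that make them. Sterols keep the transcription factor SREBP2 out of the nucleus and so lower the enzymes of cholesterol synthesis, while oxysterols act on the receptor LXR, which raises sterol export. Bile acids and other lipophilic compounds can also act on the receptors PXR and CAR, which control detoxifying P450 enzymes, and electrophiles act through NRF2, which controls glutathione transferases and other defence enzymes.

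Per WT array, 10370 to 11952 probes out of 25697 were detected, and 8366 genes had a probe detected on at least 4 of the 8 arrays and were tested. The spread of the background probes was wider on the high cholesterol arrays (SD of 7.20 to 8.08 intensity units) than on the chow arrays (4.52 to 5.51), and its part in the differences of dim genes was not tested. The median of these probes was lower, at -4.12 to -3.68 on high cholesterol and -1.35 to -0.68 on chow. The KO arrays had the same gap by diet (SD of 6.54 to 7.23 against 4.47 to 4.73). All chow samples were also numbered before all high cholesterol samples, so a processing batch that followed this order cannot be told apart from diet. On the first principal component, which held 51.88% of the variance, the high cholesterol arrays lay at 20.5 to 38.3 and the chow arrays at -29.0 to -25.6. High cholesterol replicate 3 lay farthest out on that component, and on the next one (13.8% of the variance) it stood at -26.0, against 17.7, 21.9 and -6.52 for the other 3. Of 10 measured hepatocyte markers, none rose and 1 fell, with a median difference of -0.12 (none fell without any 1 array other than high cholesterol replicate 4 or with cyclic loess, and 4 fell when arrays were scaled to equal medians), and Apoa1 (14.39 to 14.64 on high cholesterol, against 14.63 to 14.76 on chow) and Ttr were among the brightest genes. Only 2 of 14 listed T and NK cell markers, 1 of 8 B cell markers and 2 of 12 neutrophil markers were detected on 4 or more arrays.

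Levels below are log2 intensities per array, in the order of replicates 1 to 4, and differences are high cholesterol minus chow with their standard error (n = 4 arrays per group) from limma's moderated test, Benjamini-Hochberg adjusted over all 8366 genes. At an adjusted p under 0.05 the diets differed in 1730 genes (20.7% of those tested), of which 932 were higher on high cholesterol (11.1%) and 798 lower (9.54%). A log2 difference of at least 1 was reached by 522 of these genes (6.24%), 340 of them higher and 182 lower. The 4 high cholesterol and the 4 chow arrays did not overlap in 2120 genes (25.3%), and 1557 genes (18.6%) both passed the test and did not overlap. The median difference over all genes was -0.02. Liver is a mixture of cells, so fewer cells of a type and less RNA per cell cannot be told apart in any result here.

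**Figure D1:**
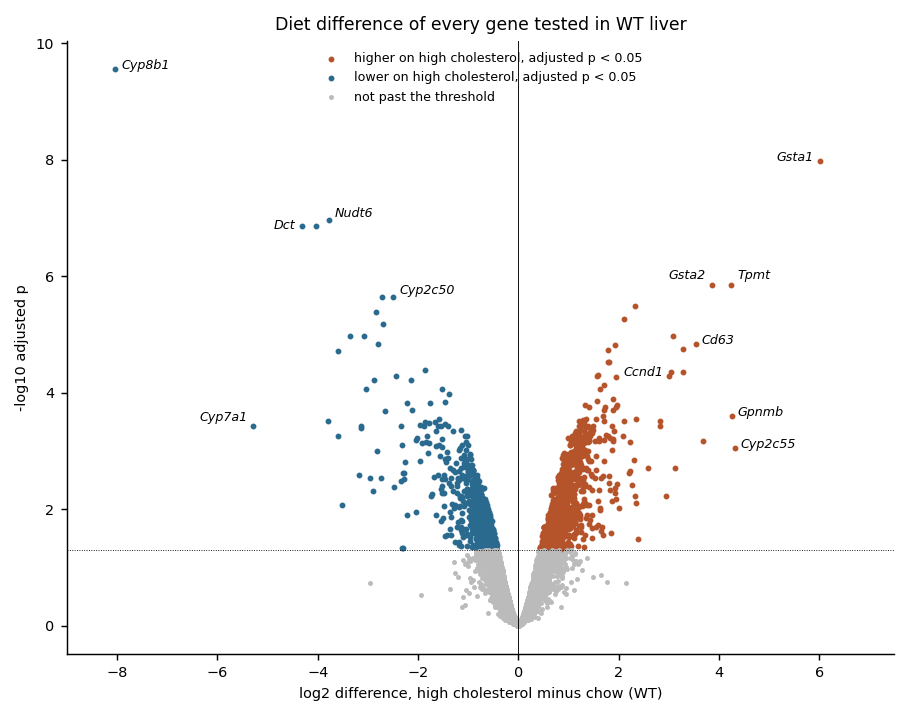
Difference between the diets for each of the 8366 genes tested, on the log2 scale (x axis, high cholesterol minus chow), against -log10 of the adjusted p (y axis). Each point is 1 gene. Cyp8b1, at -8.04, and Gsta1, at 6.01, lie farthest out, and the dotted line marks an adjusted p of 0.05.

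Bile acid synthesis held the largest falls of the comparison, Cyp8b1 and Cyp7a1. Of its 12 measured genes 5 fell and none rose, with a median difference of -0.34. Cyp8b1, the hydroxylase that directs bile acid synthesis towards cholic acid, stood at 4.70, 4.71, 5.13 and 4.52 on the high cholesterol arrays, against 13.05, 12.62, 12.70 and 12.86 on the chow arrays. It fell by 8.04 ± 0.17 (adjusted p = 2.73e-10), and its probe was detected on 1 of the 4 high cholesterol arrays, so the size of the fall depends on the background level. Cyp7a1, whose product limits the rate of the classical pathway, read 7.35, 4.63, 4.85 and 4.43 on high cholesterol, against 11.64, 10.72, 9.25 and 10.79 on chow. It fell by 5.28 ± 0.63 (adjusted p = 0.000379). On high cholesterol it was detected in replicate 1 alone, whose level was still below all chow arrays.

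Cyp7b1, the oxysterol hydroxylase of the alternative pathway, stood at 11.92, 10.93, 10.42 and 11.45 on high cholesterol, against 13.33, 13.09, 13.27 and 13.19 on chow, and fell by 2.04 ± 0.27 (adjusted p = 0.000657). Hsd3b7, which acts on the hydroxylated sterols that follow, fell by 0.91 ± 0.20 (adjusted p = 0.00896) and had non-overlapping groups (12.74 to 13.70 against 13.95 to 14.27). Cyp27a1, the mitochondrial sterol hydroxylase that opens the alternative pathway, fell by 0.61 ± 0.17 (adjusted p = 0.0287), but the call was lost without chow replicates 1, 2, 3 or 4, at an adjusted p of 0.0550 to 0.0853. A second probe of Cyp27a1 read -0.12, and the mean of its probes was not called (adjusted p = 0.146). Nr1h4, which encodes FXR, differed by -0.41 ± 0.21 (adjusted p = 0.198).

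Among 12 measured transporters of bile acids and organic anions 4 rose and 3 fell. Ostb, a subunit of the basolateral bile acid exporter, had the largest rise, with 7.55, 7.71, 7.59 and 8.02 on high cholesterol, against 5.31, 5.88, 4.56 and 5.73 on chow. It rose by 2.35 ± 0.26 (adjusted p = 0.000283), and no high cholesterol array was as low as any chow array. Abcb11, the bile salt export pump of the canaliculus, rose by 0.99 ± 0.24 (adjusted p = 0.0139), with 10.95 to 11.98 on high cholesterol and 10.32 to 11.01 on chow, ranges that overlapped in high cholesterol replicate 1 and chow replicate 3. Abcb4, which moves phospholipid into bile, rose by 1.07 ± 0.24 (adjusted p = 0.00929). Slco1a4, an uptake carrier of organic anions, rose by 1.81 ± 0.31 (adjusted p = 0.00267).

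Uptake carriers were among the transporters that fell. Slc10a1, the sodium-dependent bile acid carrier, was detected on none of the high cholesterol arrays (4.69, 5.02, 4.97 and 4.90) and on all 4 chow arrays (5.85, 5.92, 5.84 and 5.45). It was at least 1.58-fold lower, where such a bound sets each undetected array no lower than the dimmest signal detected on that array (adjusted p = 0.00347). The chow levels of Slc10a1 lay near the dimmest signals detected on those arrays (4.89 to 5.07), so its fall depends on the background level. Slc22a7, an organic anion carrier, fell by 1.08 ± 0.19 (adjusted p = 0.00292).

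**Figure D2:**
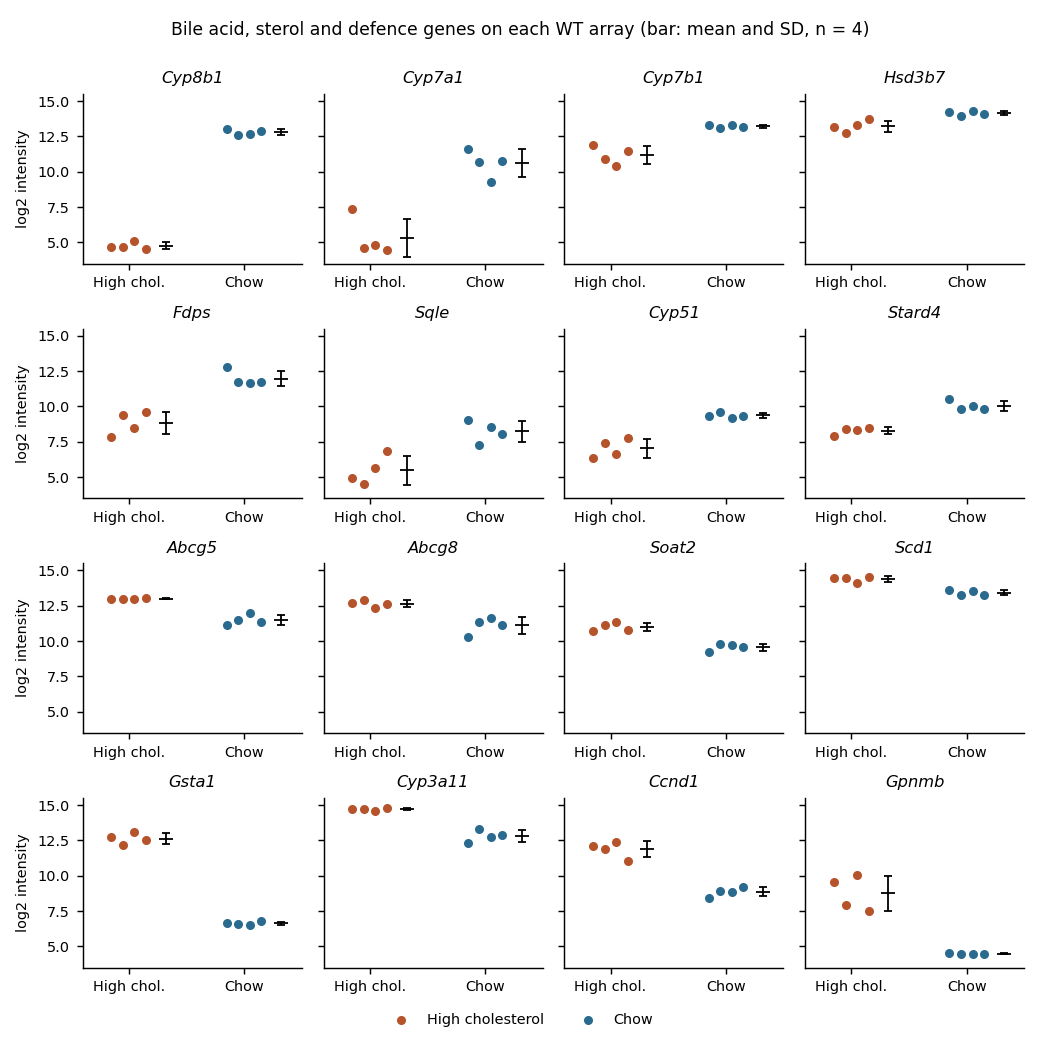
Levels of 16 genes on each of the 8 WT arrays (y axis, log2 intensity), high cholesterol on the left of each panel and chow on the right. Points are arrays in the order of their replicate numbers, and bars are the mean and SD of 4 arrays. None of these 16 genes, taken from the named genes, has a high cholesterol array inside the chow range. Over all genes tested, 25.3% had groups that did not overlap.

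Most measured genes of cholesterol synthesis fell. Between mevalonate and squalene 4 of 5 measured genes fell (median difference -2.30), and between lanosterol and cholesterol 9 of 11 fell (median -1.52), with no gene higher in either list. Each left-out array gave the same 4 and 9 calls. Fdps, which makes farnesyl diphosphate, stood at 7.84, 9.40, 8.50 and 9.57 on high cholesterol, against 12.79, 11.71, 11.64 and 11.72 on chow, and was 8.81-fold lower (fell by 3.14 ± 0.38 on the log2 scale, adjusted p = 0.000403). Chow replicate 1 was the highest of all 8 arrays for this gene, and high cholesterol replicates 1 and 3 were the lowest. Sqle, which oxidises squalene, read 4.92, 4.52, 5.63 and 6.88 on high cholesterol, where 2 of 4 arrays detected it, against 9.03, 7.30, 8.54 and 8.05 on chow. It fell by 2.74 ± 0.48 (adjusted p = 0.00292), and a second probe, detected on no high cholesterol array, read -1.40.

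Mvd, the decarboxylase of the mevalonate route, was detected on 1 of 4 high cholesterol arrays (4.54, 4.57, 4.67 and 5.25) and on all chow arrays (8.34, 6.34, 7.20 and 6.34), and fell by 2.30 ± 0.39 (adjusted p = 0.00244). Pmvk, a kinase of the same route, fell by 1.22 ± 0.22 (adjusted p = 0.00350). Acat2, a thiolase at the start of the route, differed by -0.35 ± 0.20 (adjusted p = 0.251), with overlapping groups. In the later steps Cyp51, the lanosterol demethylase, stood at 6.34, 7.38, 6.61 and 7.75 on high cholesterol, against 9.30, 9.61, 9.21 and 9.31 on chow, and fell by 2.34 ± 0.28 (adjusted p = 0.000379). For Cyp51 the high cholesterol replicates 2 and 4 were higher than replicates 1 and 3, as for Fdps. Sc4mol (now Msmo1), a sterol oxidase, fell by 2.26 ± 0.35, Nsdhl, a sterol dehydrogenase, fell by 1.83 ± 0.25, Hsd17b7, a sterol reductase, fell by 1.43 ± 0.22, and Ebp, a sterol isomerase, fell by 1.08 ± 0.17 (adjusted p between 0.000701 and 0.00181 for these 4 genes).

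The promoters of these genes were read because the members moved together. RefSeq windows on build GRCm38.p6, from 250 bases before to 50 bases after the annotated start, were at hand for 11 of the 13 lower genes. The letters TCACNCCAC, a strict form of a sterol response element, were searched on both strands and were found in none of the 11. The same search found them in 1.24% of all 32851 windows, and no match says only that these exact letters are absent from these windows. The letters CCAAT, the box bound by NF-Y and searched on both strands after the first search had been seen, were present in 11 of 11. They were present in 43.64% of the 6388 tested genes that had a window and in 37.41% of all windows, and the share in the 11 genes is a description only. Fdps and Sqle had no window, and the windows of the next 3 genes by size of the fall are shown, 5′ to 3′ on the gene's strand, with CCAAT or its reverse complement in capitals.

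Cyp51 (chr5:4104648-4104947, minus strand): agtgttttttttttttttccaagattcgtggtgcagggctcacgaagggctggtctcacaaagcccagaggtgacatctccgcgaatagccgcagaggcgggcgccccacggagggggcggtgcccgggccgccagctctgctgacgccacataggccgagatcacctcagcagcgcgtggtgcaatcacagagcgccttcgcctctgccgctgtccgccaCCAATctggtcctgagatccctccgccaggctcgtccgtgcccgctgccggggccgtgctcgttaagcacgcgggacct
Mvd (chr8:122443373-122443672, minus strand): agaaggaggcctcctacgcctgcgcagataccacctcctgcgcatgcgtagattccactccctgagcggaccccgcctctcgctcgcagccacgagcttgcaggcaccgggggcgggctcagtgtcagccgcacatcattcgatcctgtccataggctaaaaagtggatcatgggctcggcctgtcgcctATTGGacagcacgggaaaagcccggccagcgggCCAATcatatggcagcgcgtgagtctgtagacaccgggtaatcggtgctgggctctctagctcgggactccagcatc
Sc4mol (chr8:64733529-64733828, minus strand): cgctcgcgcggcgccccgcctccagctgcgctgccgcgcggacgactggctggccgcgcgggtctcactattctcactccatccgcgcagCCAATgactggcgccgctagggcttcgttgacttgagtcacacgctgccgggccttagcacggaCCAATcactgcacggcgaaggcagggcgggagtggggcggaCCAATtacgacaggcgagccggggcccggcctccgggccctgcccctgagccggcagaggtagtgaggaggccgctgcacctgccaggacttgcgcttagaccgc

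Genes of sterol sensing and uptake moved less uniformly: of 12 measured, 1 rose and 3 fell, with a median of -0.20. Stard4, a sterol carrier, fell by 1.77 ± 0.20 (adjusted p = 0.000333), and Srebf2, which encodes SREBP2, fell by 0.94 ± 0.23 (adjusted p = 0.0156). Npc2, the lysosomal cholesterol carrier, rose by 1.10 ± 0.17 (adjusted p = 0.00140). For Insig1, which holds SREBP2 back, the probe used differed by -0.18 ± 0.33 (adjusted p = 0.738). Its 2 other detected probes read -1.18 and -1.11, so the probes of Insig1 disagree in size.

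Genes of sterol export rose in part. Of 9 measured LXR targets and export genes 4 were higher and 1 was lower. The ABC transporters Abcg5 and Abcg8 form the pump that sends sterols into bile. Abcg5 read 13.01, 12.95, 12.95 and 13.02 on high cholesterol, against 11.15, 11.50, 11.95 and 11.38 on chow, and rose by 1.49 ± 0.18 (adjusted p = 0.000374). Abcg8 read 12.70, 12.93, 12.33 and 12.60 on high cholesterol, against 10.28, 11.38, 11.66 and 11.11 on chow, and rose by 1.53 ± 0.27 (adjusted p = 0.00292). For both genes every high cholesterol array was above every chow array, and the high cholesterol arrays lay closer together. Abcg1, a sterol pump of macrophages among other cells, was detected on all high cholesterol arrays and on no chow array, and was at least 1.35-fold higher (adjusted p = 0.00455). Lpl, lipoprotein lipase, rose by 2.11 ± 0.24 (adjusted p = 0.000308). Nr1h3, which encodes LXR alpha, fell by 0.60 ± 0.16 (adjusted p = 0.0259), but a second probe read 0.19 and the call was lost without high cholesterol replicate 2 or chow replicates 1, 3 or 4, at an adjusted p of 0.0560 to 0.0716.

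Of 15 measured genes of fatty acid synthesis 2 rose and 2 fell. Each is 13.3% of the list, near the shares over all genes (11.1% higher and 9.54% lower). Scd1, the stearoyl-CoA desaturase, rose by 0.97 ± 0.16 (adjusted p = 0.00220), with 14.11 to 14.55 on high cholesterol and 13.27 to 13.65 on chow. Scd2, its relative, rose by 0.88 ± 0.21 (adjusted p = 0.0150). Thrsp, a lipogenic regulator, varied most among the high cholesterol arrays (8.24, 11.22, 7.15 and 9.72, against 12.65, 10.95, 11.02 and 10.89 on chow). It fell by 2.29 ± 0.73 (adjusted p = 0.0464), but the call was lost without high cholesterol replicates 1, 3 or 4 or chow replicates 1, 2, 3 or 4, at an adjusted p of 0.0505 to 0.121. Fasn (0.61 ± 0.36, adjusted p = 0.256), Srebf1 (-0.44 ± 0.32, adjusted p = 0.357) and Elovl5 (-0.84 ± 0.29, adjusted p = 0.0610) had overlapping groups and were not called. Median scaling gave 6 lower genes in this list. Without chow replicate 4 no gene of it was called lower, and without high cholesterol replicate 3 or chow replicate 1 or 3 only 1 was.

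Of 13 measured genes of lipid droplets and ester storage 2 rose and 2 fell. Each is 15.4% of the list, against 11.1% higher and 9.54% lower over all genes. Soat2, which esterifies cholesterol in liver, stood at 10.71, 11.16, 11.33 and 10.77 on high cholesterol, against 9.24, 9.81, 9.69 and 9.58 on chow, and rose by 1.41 ± 0.19 (adjusted p = 0.000688). The probe named 1110028A07Rik, Fitm1 in RefSeq, a protein of droplet formation, fell by 2.22 ± 0.23 (adjusted p = 0.000151). Both counts moved with single arrays: 4 rose without high cholesterol replicate 4, and 1 fell without any other array except chow replicate 3. With cyclic loess 4 rose and 1 fell. Among 27 measured genes of fatty acid oxidation 2 rose (7.41%) and 3 fell (11.1%), near the shares over all genes. Only 1 rose without high cholesterol replicate 1 or any 1 chow array, or with median scaling. Ehhadh, a peroxisomal enzyme, rose by 1.23 ± 0.18 (adjusted p = 0.00107). Cyp4a14, a fatty acid hydroxylase, had 5.99, 6.11, 8.31 and 6.25 on high cholesterol, against 10.75, 8.31, 9.41 and 9.74 on chow, and fell by 2.89 ± 0.56 (adjusted p = 0.00493). High cholesterol replicate 3 equalled the lowest chow array for this gene to 2 decimals. Of 17 measured apolipoprotein and lipoprotein assembly genes 1 rose, Apoh (0.89 ± 0.15, adjusted p = 0.00232), and none fell, but with median scaling 4 fell.

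**Figure D3:**
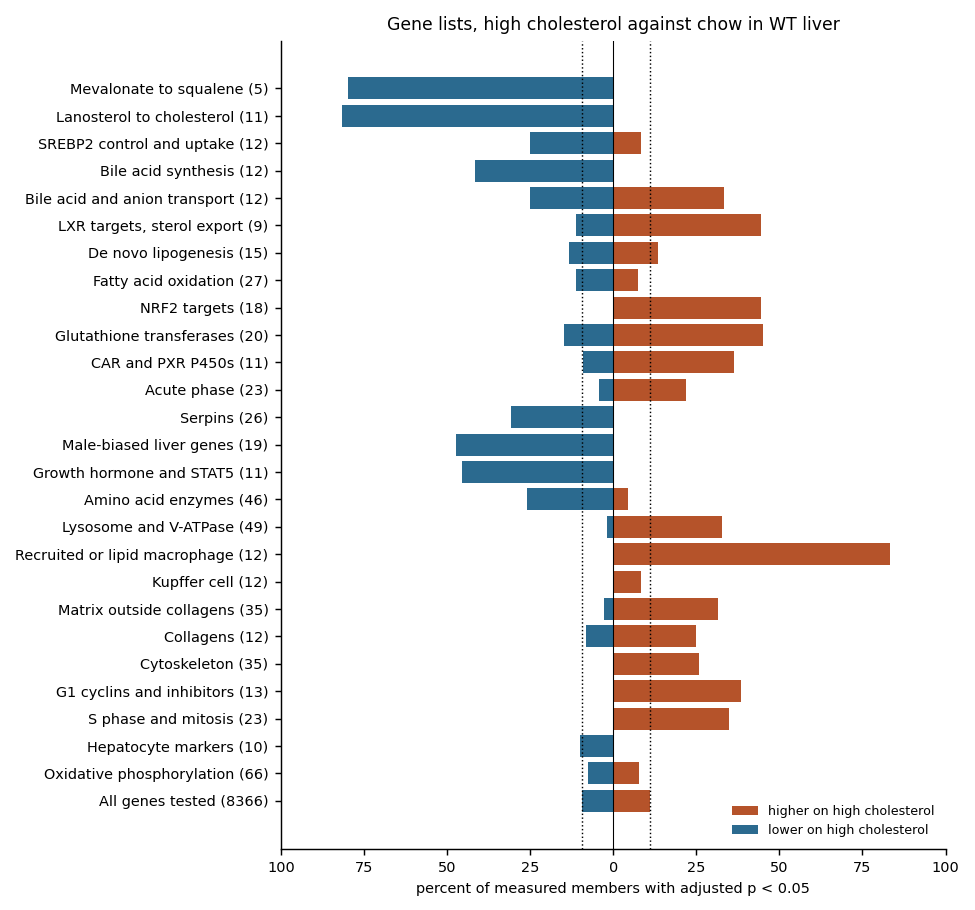
Share of each gene list that passed the test (x axis, percent of the measured members), lower on high cholesterol to the left and higher to the right. The number of measured genes is in brackets, and the dotted lines mark the shares over all 8366 genes, 9.54% lower and 11.1% higher. Both cholesterol synthesis lists lie on the left only and the recruited or lipid macrophage list on the right only.

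Many defence enzymes rose. Of 20 measured glutathione transferases 9 were higher and 3 lower (median difference 0.59), and of 18 other NRF2 targets 8 were higher and none lower (median 0.55). Gsta1 had the largest rise of the comparison, with 12.72, 12.18, 13.07 and 12.55 on high cholesterol, against 6.63, 6.55, 6.52 and 6.77 on chow, and was 64.4-fold higher (rose by 6.01 ± 0.19 on the log2 scale, adjusted p = 1.04e-08). Gsta2 rose by 3.85 ± 0.21 (adjusted p = 1.40e-06), with 11.70 to 12.37 on high cholesterol and 7.71 to 8.57 on chow. Gsta1 and Gsta2 are near-identical, so their probes may share signal. Gstm3 was detected on all high cholesterol arrays (7.96, 7.95, 7.60 and 6.92) and on no chow array (4.64, 4.56, 4.49 and 4.39), and was at least 6.26-fold higher (adjusted p = 1.04e-05). Gstm1 rose by 1.79 ± 0.14 (adjusted p = 1.88e-05) and Gstm4 rose by 1.03 ± 0.18 (adjusted p = 0.00269). A second probe of Gstm1, near the background on chow, read 0.89. Without chow replicate 3 only 1 transferase was called lower.

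Outside the transferases, Gclc, the catalytic subunit of glutathione synthesis, stood at 7.13, 6.89, 7.06 and 7.26 on high cholesterol, against 5.78, 5.63, 6.19 and 5.77 on chow, and rose by 1.24 ± 0.16 (adjusted p = 0.000624). The carbonyl reductase Cbr1 rose by 1.16 ± 0.16 (adjusted p = 0.000880) and its relative Cbr3 rose by 1.54 ± 0.23 (adjusted p = 0.00121), with a second probe at 0.84. Tkt, the transketolase of the pentose phosphate pathway, rose by 1.06 ± 0.16 (adjusted p = 0.00114). Ephx1, the microsomal epoxide hydrolase, rose by 0.81 ± 0.14 (adjusted p = 0.00266), but it was not called under median scaling (adjusted p = 0.0584). Hmox1, the heme oxygenase, rose by 0.73 ± 0.19 (adjusted p = 0.0221), but the call was lost without high cholesterol replicate 2 or chow replicates 2, 3 or 4, at an adjusted p of 0.0556 to 0.0703. The groups of these 6 genes did not overlap, as for 25.3% of all genes tested, and list members were named mostly by p.

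Among 17 higher transferases and NRF2 targets, 14 had a RefSeq promoter window. The letters TGACNNNGC, the core of the antioxidant response element, were searched on both strands and were found in 2 of the 14, Gclm and Pgd, against 16.73% of the 6388 tested genes and 12.39% of all windows. The same letters were in 3 of the 11 windows of lower cholesterol synthesis genes. CCAAT was in 9 of these 14 windows and in 3 of 3 windows of the lower transferases, and the sterol letters were in 1 of the 14. Gclm, the modifier subunit of glutathione synthesis, stood at 11.92, 12.04, 11.65 and 11.89 on high cholesterol, against 10.64, 10.61, 11.06 and 11.38 on chow, and rose by 0.95 ± 0.19 (adjusted p = 0.00649). Pgd, an enzyme of the pentose phosphate pathway, rose by 0.75 ± 0.23 (adjusted p = 0.0406), but the call was lost without high cholesterol replicates 2, 3 or 4 or chow replicates 2, 3 or 4, at an adjusted p of 0.0698 to 0.116. Gclm was named for its match, which lies on the minus strand of the window and is in capitals.

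Gclm (chr3:122245307-122245606, plus strand): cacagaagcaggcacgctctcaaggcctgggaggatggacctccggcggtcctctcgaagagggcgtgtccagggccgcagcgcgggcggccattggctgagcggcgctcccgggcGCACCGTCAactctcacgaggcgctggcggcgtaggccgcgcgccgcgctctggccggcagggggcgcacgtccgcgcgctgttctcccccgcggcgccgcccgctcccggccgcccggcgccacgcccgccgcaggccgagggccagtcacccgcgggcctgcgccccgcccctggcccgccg

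Of 11 measured P450 genes and factors of CAR and PXR 4 rose and 1 fell, with a median of 0.69, and 2 fell without high cholesterol replicate 2. Cyp3a11, the main PXR-controlled P450, was among the brightest genes, with 14.73, 14.73, 14.58 and 14.81 on high cholesterol, against 12.30, 13.32, 12.77 and 12.90 on chow. It rose by 1.89 ± 0.20 (adjusted p = 0.000197), and the spread of the high cholesterol arrays was narrower than that of the chow arrays. Nr1i2, which encodes PXR, rose by 0.84 ± 0.17 (adjusted p = 0.00671), while Nr1i3, which encodes CAR, fell by 1.48 ± 0.32 (adjusted p = 0.00899). Nr1i3 read 9.21, 8.38, 7.40 and 7.76 on high cholesterol, against 9.44, 9.88, 9.64 and 9.72 on chow. Cyp2b10, a CAR-controlled P450, rose by 1.23 ± 0.29 (adjusted p = 0.0136), and it was not called when all 16 arrays were fitted together (adjusted p = 0.100). Por, the reductase that serves the P450s, read 11.90, 11.87, 11.56 and 10.27 on high cholesterol, against 9.95, 10.37, 9.73 and 10.04 on chow, so replicate 4 lay inside the chow range. It rose by 1.38 ± 0.32 (adjusted p = 0.0126), and a second probe read 0.76.

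The Cyp2c family split, with 2 of 7 measured genes higher and 3 lower. Cyp2c55 stood at 7.89, 9.55, 11.27 and 10.37 on high cholesterol, against 5.46, 6.26, 4.43 and 5.65 on chow, and rose by 4.32 ± 0.61 (adjusted p = 0.000893). Cyp2c50 stood at 11.54, 11.40, 11.56 and 11.30 on high cholesterol, against 13.75, 14.00, 14.14 and 13.89 on chow, and fell by 2.50 ± 0.15 (adjusted p = 2.30e-06). Cyp2c37 fell by 2.15 ± 0.20 (adjusted p = 6.10e-05) and Cyp2c67 fell by 0.95 ± 0.14 (adjusted p = 0.00137). Cyp2c29 rose by 1.43 ± 0.35 (adjusted p = 0.0151), with high cholesterol replicate 1 inside the chow range. These genes are close paralogs, and probes may not tell all of them apart. Of 21 other measured hepatocyte P450s 1 rose and 4 fell, among them Cyp2u1 (-1.63 ± 0.23, adjusted p = 0.000834) and Cyp4f14 (-0.98 ± 0.16, adjusted p = 0.00225). Cyp2a5, a coumarin hydroxylase and the 1 gene that rose, read 14.55, 14.33, 13.72 and 12.99 on high cholesterol, against 12.67, 13.01, 12.86 and 12.99 on chow. It rose by 1.02 ± 0.29 (adjusted p = 0.0304), but the call was lost without high cholesterol replicates 1 or 2 or chow replicates 1, 2, 3 or 4, at an adjusted p of 0.0593 to 0.0789, and median scaling also ended it (adjusted p = 0.174). The other probes of Cyp2a5 read 1.43, 1.37 and 1.47.

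Conjugating enzymes leaned lower, with 4 of 14 measured UGT and SULT genes lower and 1 higher. Sult5a1 stood at 5.39, 5.69, 5.46 and 5.79 on high cholesterol, against 8.38, 7.71, 7.28 and 7.48 on chow, and fell by 2.13 ± 0.23 (adjusted p = 0.000197). Ugt3a1 fell by 1.78 ± 0.24 (adjusted p = 0.000720), and the 1 gene that rose, Ugt2b34, rose by 1.21 ± 0.20 (adjusted p = 0.00227). Without high cholesterol replicate 3 the list held 3 higher genes. Of 19 measured peroxide enzymes and metallothioneins 4 rose and 2 fell, and Gpx4, which reduces lipid peroxides, rose by 0.92 ± 0.18 (adjusted p = 0.00505). The count of 4 was 2 without high cholesterol replicate 1 or chow replicate 4, and the count of 2 was 1 without high cholesterol replicate 2 or 3 or chow replicate 1, 3 or 4. Prdx6, another peroxide enzyme, fell by 0.88 ± 0.20 (adjusted p = 0.0125), and a second probe read -0.45. Median scaling gave 2 higher and 4 lower genes in this list. None of 4 measured NADPH oxidase subunits was called by limma, and 0 of 4 had an unadjusted p under 0.05, although 1 was called without high cholesterol replicate 2.

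Some genes that are sex-biased in mouse liver or driven by growth hormone fell. Of 19 measured male-biased genes 9 fell and none rose (median -0.58), and of 6 measured female-biased genes 1 fell and none rose. The 1 that fell was Cyp4a14, given above. Another 14 female-biased and 3 male-biased genes on the array were not detected on enough arrays, so the 2 lists are not equally covered. Without high cholesterol replicate 3 each of these lists had 1 higher gene, and without high cholesterol replicate 2 the female-biased list had 2 lower. The sex of the animals is not given in the labels. Hsd3b5, a male-biased steroid enzyme, stood at 9.64, 7.32, 8.59 and 10.02 on high cholesterol, against 12.54, 12.48, 12.50 and 12.46 on chow, and fell by 3.60 ± 0.46 (adjusted p = 0.000549). The chow arrays were almost equal, and the high cholesterol arrays were all lower and spread widely. Elovl3, a fatty acid elongase, read 4.75, 4.48, 4.76 and 6.47 on high cholesterol, where 1 of 4 arrays detected it, against 8.41, 8.07, 8.57 and 7.91 on chow, and fell by 3.13 ± 0.37 (adjusted p = 0.000379). Susd4 fell by 3.60 ± 0.28 (adjusted p = 1.95e-05), Selenbp2, a selenium-binding protein, fell by 2.71 ± 0.16 (adjusted p = 2.30e-06), and Nudt7, a peroxisomal hydrolase, fell by 1.66 ± 0.19 (adjusted p = 0.000320), with a second probe at -2.58.

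Of 11 measured growth hormone and STAT5 genes 5 fell and none rose (median -0.85). Igf1, the circulating growth factor, stood at 11.68, 11.50, 11.68 and 11.62 on high cholesterol, against 12.77, 12.58, 12.58 and 12.78 on chow, and fell by 1.06 ± 0.14 (adjusted p = 0.000560). Egfr, the epidermal growth factor receptor, read 10.05, 9.52, 8.72 and 10.15 on high cholesterol, against 11.15, 11.25, 11.12 and 11.32 on chow, and fell by 1.60 ± 0.27 (adjusted p = 0.00260). Prlr, the prolactin receptor, fell by 2.27 ± 0.40 (adjusted p = 0.00304) and Lifr, the LIF receptor, fell by 1.35 ± 0.24 (adjusted p = 0.00292). These 4 genes had non-overlapping groups, as did 25.3% of all genes tested, and list members were named mostly by p. Second probes of Egfr and Lifr read -0.997 and -0.875. Of 26 measured serpins 8 fell and none rose, and the 8 were 5 without chow replicate 1 or 2, while 1 serpin rose without high cholesterol replicate 4 or chow replicate 2 or 3. Serpina3k fell by 1.88 ± 0.22 (adjusted p = 0.000374), Serpina12, also called vaspin, fell by 2.27 ± 0.38 (adjusted p = 0.00242) with a second probe at -1.45, and Serpinf1 fell by 0.72 ± 0.15 (adjusted p = 0.00801).

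Of 46 measured genes of the urea cycle and amino acid breakdown 12 fell and 2 rose (median -0.25). Oat, ornithine aminotransferase, stood at 12.39, 12.13, 11.32 and 11.31 on high cholesterol, against 12.85, 13.65, 13.33 and 13.42 on chow, and fell by 1.52 ± 0.27 (adjusted p = 0.00300). Hpd, of tyrosine breakdown, fell by 1.44 ± 0.22 (adjusted p = 0.00152), Agxt, the peroxisomal glyoxylate enzyme, fell by 1.31 ± 0.21 (adjusted p = 0.00216), and Prodh2 fell by 1.00 ± 0.14 (adjusted p = 0.000782). The 2 higher genes of this list were 0 without high cholesterol replicate 2 or any 1 chow array, and 1 without high cholesterol replicate 1, with no background correction or in the authors' normalized values. Median scaling gave 20 lower genes in place of 12. In glucose metabolism 6 of 29 measured genes rose and 3 fell. Pck1, the rate-limiting enzyme of gluconeogenesis, read 8.75, 8.99, 7.27 and 8.51 on high cholesterol, against 6.83, 6.90, 5.90 and 6.60 on chow, and rose by 1.82 ± 0.35 (adjusted p = 0.00464). Irs1, an insulin receptor substrate, rose by 1.07 ± 0.14 (adjusted p = 0.000657), detected on 2 of 4 chow arrays. For Slc2a2, the glucose transporter of hepatocytes, the probe used rose by 3.69 ± 0.49 (adjusted p = 0.000677), with chow replicate 3 apart from the others (7.40, 7.63, 9.94 and 7.11 on chow). Its 2 other probes read 0.415 and 0.413, so the size of the rise rests on 1 probe.

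Markers of macrophages loaded with lipid, or recruited into tissue, were higher. Of 22 such markers 12 were measured, and 10 of the 12 rose and none fell (median 1.55). These counts were the same with any 1 array left out. Of the 12, 2 were detected in the high cholesterol group alone, and passing the detection filter could rest on that group. Gpnmb, a membrane glycoprotein of macrophages that hold lipid, was found on all high cholesterol arrays (9.53, 7.90, 10.04 and 7.52) and on no chow array (4.56, 4.49, 4.43 and 4.47), and was at least 13.8-fold higher (adjusted p = 0.000249). Mmp12, the macrophage elastase, was likewise detected on the high cholesterol arrays alone and was at least 2.87-fold higher (adjusted p = 0.000176). Cd9, a tetraspanin, rose by 1.63 ± 0.16 (adjusted p = 8.79e-05), Lyz2, the macrophage lysozyme, rose by 1.22 ± 0.15 (adjusted p = 0.000487), and Lpl is given above.

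Resident Kupffer cell markers were near the background share, with 1 of 12 measured genes higher and none lower. That gene was Emr1, which encodes F4/80 (1.03 ± 0.21, adjusted p = 0.00593); without high cholesterol replicate 1 or chow replicate 1 the count was 2, and without high cholesterol replicate 2 there was 1 lower gene. C1qc (0.47 ± 0.17, adjusted p = 0.0767) and Vsig4 (0.47 ± 0.18, adjusted p = 0.0863) were not called. The 2 measured neutrophil markers rose. S100a8, a calcium-binding protein of neutrophils, stood at 8.16, 8.70, 7.68 and 8.01 on high cholesterol, against 5.65, 5.25, 4.59 and 4.85 on chow, where 2 of 4 arrays detected it, and rose by 3.05 ± 0.26 (adjusted p = 4.44e-05). Lcn2, which hepatocytes also make in the acute phase, rose by 1.97 ± 0.20 (adjusted p = 0.000163), and was not called when all 16 arrays were fitted together (adjusted p = 0.110). Of 3 measured dendritic cell markers 1 fell, H2-Ab1 (-1.14 ± 0.28, adjusted p = 0.0156), and the 10 other listed neutrophil markers were not detected on enough arrays. None of the measured T, NK or B cell markers was called by limma, and 0 of 3 had an unadjusted p under 0.05.

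Of 14 measured endothelial markers 1 rose and 2 fell, of 7 bile duct and progenitor markers 2 rose, and of 3 erythroid markers 1 rose. Those that rose were Lyve1 of sinusoidal endothelium (1.34 ± 0.22, adjusted p = 0.00195), Spp1 and Ly6d, both given below, and Hbb-b1, a globin (1.33 ± 0.19, adjusted p = 0.00107). They do not stand for their lists, whose median differences were -0.12 (endothelium), 0.09 (bile duct) and -0.51 (erythroid). The lowest differences were -0.80, -0.42 and -1.02, and the erythroid markers other than Hbb-b1 read lower on high cholesterol. The endothelial counts were 2 higher without high cholesterol replicate 2, and 1 lower without that array or chow replicate 2, 3 or 4. The bile duct count was 1 without any 1 chow array, with 1 lower gene without high cholesterol replicate 4. In the erythroid list 1 gene fell without high cholesterol replicate 4 or chow replicate 1, and 2 fell with median scaling. Krt7 and Krt19, keratins that define duct cells, were not detected on enough arrays to be tested.

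Of 49 measured lysosomal genes 16 rose and 1 fell, with a median of 0.35. Which cells they came from was not tested. Cd63, a membrane protein of late endosomes, stood at 10.09, 10.28, 11.01 and 9.68 on high cholesterol, against 7.03, 6.43, 6.94 and 6.49 on chow, and rose by 3.54 ± 0.26 (adjusted p = 1.47e-05). Its 2 other probes read 3.29 and 2.81. The protease Ctss rose by 1.58 ± 0.16 (adjusted p = 0.000141). The probe of Ctsd, another protease, was detected on no chow array and was at least 2.34-fold higher (adjusted p = 0.000436). Naglu, which degrades heparan sulfate, rose by 1.40 ± 0.17 (adjusted p = 0.000374), and Atp6v1a, a subunit of the proton pump, rose by 1.39 ± 0.19 (adjusted p = 0.000678).

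Matrix genes other than collagens were higher in 11 of 35 measured and lower in 1 (median 0.46). The count of 11 was 7 without high cholesterol replicate 1 or chow replicate 2, 3 or 4. Spp1, osteopontin, which macrophages and bile duct cells both make, stood at 8.77, 9.49, 11.69 and 10.14 on high cholesterol, against 6.76, 6.63, 7.60 and 6.59 on chow, and rose by 3.13 ± 0.51 (adjusted p = 0.00196). Nid1, a basement membrane protein, rose by 1.89 ± 0.25 (adjusted p = 0.000624), and Tgfbr2, a TGF beta receptor, rose by 1.39 ± 0.19 (adjusted p = 0.000698). Of 12 measured collagens 3 rose and 1 fell. Col1a1, of fibrillar collagen, read 6.16, 6.47, 6.01 and 5.63 on high cholesterol, against 5.25, 4.51, 4.49 and 4.52 on chow, where only replicate 1 detected it, and rose by 1.38 ± 0.22 (adjusted p = 0.00209). Col4a1 rose by 0.81 ± 0.15 (adjusted p = 0.00359) and Col4a2 rose by 0.82 ± 0.16 (adjusted p = 0.00493), both of basement membrane. The lower one, Col27a1, fell by 1.35 ± 0.38 (adjusted p = 0.0278), but the call was lost without high cholesterol replicates 1, 2 or 3 or chow replicates 1, 3 or 4, at an adjusted p of 0.0548 to 0.0741, and with median scaling 2 collagens fell. Beside these, 2 of 10 measured stellate cell markers rose and none fell, with a median of 0.04. The 2 were 1 with median scaling or without high cholesterol replicate 1 or 2 or chow replicate 2 or 3, and without high cholesterol replicate 2 or chow replicate 2 there was 1 lower gene.

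Of 35 measured cytoskeletal genes 9 rose and none fell (median 0.45), and without high cholesterol replicate 3 or chow replicate 3 there was 1 lower gene. Krt8, a keratin of hepatocytes and duct cells, stood at 12.63, 12.42, 13.48 and 13.63 on high cholesterol, against 11.54, 11.40, 11.55 and 11.43 on chow, and rose by 1.56 ± 0.25 (adjusted p = 0.00211). Arpc1b, of the actin branching complex, rose by 1.89 ± 0.19 (adjusted p = 0.000126; 1.25 without high cholesterol replicate 3, and 1.30 and 0.63 by its 2 other probes), Actn1 rose by 1.43 ± 0.18 (adjusted p = 0.000560) and Tpm1 rose by 1.17 ± 0.16 (adjusted p = 0.000893). Annexins, which bind membranes with calcium, were higher in 3 of 6 measured. Anxa2 read 11.00, 10.72, 12.58 and 11.00 on high cholesterol, against 9.66, 8.83, 9.27 and 8.73 on chow, and rose by 2.20 ± 0.37 (adjusted p = 0.00238). Anxa5 rose by 1.24 ± 0.20 (adjusted p = 0.00207), and Anxa3 rose by 1.00 ± 0.31 (adjusted p = 0.0431), but for Anxa3 the call was lost without high cholesterol replicates 1 or 2 or chow replicates 1, 2 or 4, at an adjusted p of 0.0575 to 0.102. Anxa3 read 0.66 without high cholesterol replicate 3, and 0.60 by a second probe. Of 8 measured S100 proteins, also calcium-binding, 3 rose and 1 fell. The 3 were 1 without chow replicate 2, 3 or 4, and none fell without any 1 array other than chow replicate 3.

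Acute phase, complement and cytokine lists are set here beside the shares over all genes, 11.1% higher and 9.54% lower. In that order the lists held 21.7%, 10.8% and 17.6% higher genes, and 4.35%, 16.2% and 5.88% lower genes. Of 23 measured acute phase genes 5 rose and 1 fell, and the 5 were 3 without high cholesterol replicate 1 or 2 or chow replicate 2 or 4. With median scaling 3 fell. Cp, ceruloplasmin, rose by 0.97 ± 0.19 (adjusted p = 0.00488) and Lbp, the lipopolysaccharide-binding protein, rose by 0.85 ± 0.17 (adjusted p = 0.00676). Of 37 measured complement and coagulation genes 4 rose and 6 fell, and the 6 were 3 without chow replicate 2 or 4 and 10 with median scaling. Cfb, complement factor B, stood at 11.71, 11.40, 11.39 and 11.55 on high cholesterol, against 9.42, 9.47, 9.39 and 9.31 on chow, and rose by 2.12 ± 0.14 (adjusted p = 5.39e-06), while F11, a coagulation factor, fell by 1.02 ± 0.20 (adjusted p = 0.00479). Of 17 measured cytokine and adhesion genes 3 rose and 1 fell. The adhesion molecules Vcam1 and Icam1 rose by 1.36 ± 0.18 (adjusted p = 0.000605) and 1.45 ± 0.22 (adjusted p = 0.00149), and Il18 fell by 0.71 ± 0.16 (adjusted p = 0.00963).

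Of 17 measured chemokines and receptors 2 rose (11.8%) and 1 fell (5.88%), against 11.1% and 9.54% over all genes. Another 35 on the array were not detected on enough arrays. Cx3cr1, a receptor of monocytes and macrophages, rose by 1.01 ± 0.19 (adjusted p = 0.00386), detected on 1 of 4 chow arrays. Interferon-stimulated genes were near the background, with 3 of 28 measured higher and 1 lower. Bst2 rose by 1.07 ± 0.19 (adjusted p = 0.00306) and Irf8 rose by 0.89 ± 0.17 (adjusted p = 0.00436). In antigen presentation 2 of 21 rose and 2 fell, each 9.52% of the list and near the shares over all genes. H2-Q1 was detected on the high cholesterol arrays alone and was at least 2.60-fold higher (adjusted p = 5.19e-05). The chemokine count of 2 was 1 without high cholesterol replicate 3 or 4 or chow replicate 2 or 3, and its lower count was 0 without high cholesterol replicate 3 or any 1 chow array. Median scaling gave 4 higher and 0 lower chemokine genes. The lower count was 0 for interferon genes with cyclic loess or without high cholesterol replicate 1 or 2 or chow replicate 3 or 4. For antigen presentation the lower count was 1 without high cholesterol replicate 1 or 3 or chow replicate 1 or 3.

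Several cell cycle genes rose. Of 13 measured G1 cyclins and inhibitors 5 rose and none fell, of 23 S phase and mitosis genes 8 rose and none fell, and of 9 replication licensing genes 3 rose and 2 fell. Ccnd1, cyclin D1, stood at 12.12, 11.92, 12.39 and 11.07 on high cholesterol, against 8.45, 8.95, 8.87 and 9.18 on chow, and was 8.06-fold higher (rose by 3.01 ± 0.27 on the log2 scale, adjusted p = 5.19e-05). Its 2 other probes read 3.08 and 2.26. Cdkn1a, the p21 inhibitor, read 7.33, 7.56, 8.98 and 8.80 on high cholesterol, against 5.33, 6.34, 5.96 and 6.11 on chow, and rose by 2.23 ± 0.37 (adjusted p = 0.00225), and E2f1, a transcription factor of the G1 to S step, rose by 1.04 ± 0.21 (adjusted p = 0.00657). Of the S phase genes, Uhrf1, which copies DNA methylation, stood at 7.18, 6.44, 8.72 and 6.15 on high cholesterol, against 5.20, 5.12, 5.25 and 4.90 on chow, and rose by 2.00 ± 0.44 (adjusted p = 0.00962). Cdca3 rose by 1.64 ± 0.37 (adjusted p = 0.0102) and Rrm2, a subunit of ribonucleotide reductase, rose by 0.91 ± 0.19 (adjusted p = 0.00780). The Rrm2 probe used was detected on 1 of 4 chow arrays. A second probe of Rrm2, too dim to be kept, read -0.13. Mcm6, of the replicative helicase, read 6.83, 6.70, 8.59 and 7.19 on high cholesterol, against 5.15, 5.28, 4.69 and 4.97 on chow, and rose by 2.31 ± 0.35 (adjusted p = 0.00141). Mcm10, a replication factor, went the other way (-1.42 ± 0.20, adjusted p = 0.00104).

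In these S phase genes and in Mcm6 the third high cholesterol replicate was the highest array, and the other 3 also lay above the chow arrays. The count of 8 S phase genes was 4 without chow replicate 1 or 4. The licensing count of 3 was 1 without chow replicate 3 or 4, and its lower count of 2 was 1 with median scaling or without high cholesterol replicate 1 or chow replicate 2, 3 or 4. With cyclic loess 1 S phase gene fell. The G1 count of 5 was 3 without chow replicate 3, and a single lower gene appeared without high cholesterol replicate 3 or chow replicate 2. Of 29 measured p53 targets and apoptosis genes 7 rose and 1 fell, with the 7 at 4 without high cholesterol replicate 1 or 2 or chow replicate 1, 2 or 3, and at 3 without chow replicate 4. The lower count of 1 was 3 without high cholesterol replicate 3 and 2 without chow replicate 3, with median scaling, with no background correction or in the authors' normalized values.

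In the HGF, MET and EGFR list 1 of 13 measured genes rose and 3 fell. Dusp1, a MAP kinase phosphatase, rose by 1.15 ± 0.26 (adjusted p = 0.0107), and Egfr is given above. The 3 lower genes were 1 without high cholesterol replicate 1 or chow replicate 2 or 3, and the higher count was 2 without chow replicate 1. Met itself, the gene deleted in the KO mice, was detected on 3 of the 8 WT arrays and was not tested.

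Several groups stood near the background shares, but some did not with median scaling. Of 66 measured oxidative phosphorylation genes 5 rose and 5 fell, of 53 ribosomal protein genes 7 rose and 1 fell, of 29 proteasome genes 2 rose and 1 fell, and of 28 iron and heme genes 4 rose and 2 fell. Sdhd, of respiratory complex II, rose by 1.17 ± 0.20 (adjusted p = 0.00260), and Rpl36a rose by 0.99 ± 0.14 (adjusted p = 0.00115). Of 25 measured genes of the unfolded protein and stress responses none rose and 4 fell, among them Ddit3, also called CHOP (-0.90 ± 0.23, adjusted p = 0.0171). A second probe of Ddit3 read -0.34, and the mean of its probes was not called (adjusted p = 0.0736). Of 24 measured nuclear receptors and hepatocyte factors none rose and 2 fell, and of 12 clock genes 1 rose and 1 fell. 

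These counts moved with the scaling and with single arrays. Median scaling gave 17 lower oxidative phosphorylation genes (in place of 5), 7 lower proteasome genes (in place of 1), 4 higher and 3 lower ribosomal genes, 4 lower iron and heme genes and no higher clock gene. Cyclic loess gave no lower proteasome gene. The authors' normalized values and no background correction gave 3 lower ribosomal genes, and these 2 settings and cyclic loess gave 1 higher nuclear receptor gene and 2 higher clock genes. For oxidative phosphorylation 3 rose without chow replicate 3 or 4, and 1 to 3 fell without any 1 array other than high cholesterol replicate 4. For the ribosome 4 rose without chow replicate 3 or 4, and none fell without high cholesterol replicate 1 or any 1 chow array. For iron and heme 2 rose without chow replicate 2 or 4, and 1 fell without chow replicate 4. In the stress list 2 fell without high cholesterol replicate 1, 2 or 4 or chow replicate 3, and 1 without chow replicate 2. In the proteasome 2 fell without high cholesterol replicate 4, and none without any other array except high cholesterol replicate 3. Among the nuclear receptors 1 rose without high cholesterol replicate 3 or 4 or chow replicate 1, and 1 fell without high cholesterol replicate 2 or chow replicate 1, 3 or 4. Among the clock genes none rose without high cholesterol replicate 2 or chow replicate 3 or 4, 2 rose without high cholesterol replicate 4 or chow replicate 1, and 2 fell without high cholesterol replicate 3.

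Some of the largest differences lay in genes outside the lists. Tpmt, which methylates thiopurine drugs, read 9.31, 9.79, 9.37 and 9.43 on high cholesterol, against 5.39, 5.87, 4.82 and 4.87 on chow, and rose by 4.24 ± 0.23 (adjusted p = 1.40e-06). In the KO livers the same probe read 9.21, 8.90, 5.38 and 9.43 on high cholesterol and 8.44, 8.22, 8.43 and 8.74 on chow. Its low level, near the background, was thus seen on the WT chow arrays and on 1 KO array on high cholesterol. Smpdl3b, a phosphodiesterase, stood at 8.38, 8.04, 9.20 and 8.06 on high cholesterol, against 5.44, 4.84, 5.21 and 5.07 on chow, and rose by 3.28 ± 0.25 (adjusted p = 1.75e-05). Uap1l1 rose by 2.82 ± 0.33 (adjusted p = 0.000374). Among those lower, Lrtm1 read 4.56, 4.70, 4.64 and 4.72 on high cholesterol, against 8.95, 8.27, 8.91 and 8.65 on chow. Its probe was detected on no high cholesterol array and was at least 12.1-fold lower (adjusted p = 1.35e-07), and a second probe, detected on 2 of 4 high cholesterol arrays, read -2.57. Paqr9 fell by 3.80 ± 0.43 (adjusted p = 0.000308), Gnat1 fell by 3.35 ± 0.24 (adjusted p = 1.04e-05) and Raet1b fell by 3.04 ± 0.29 (adjusted p = 8.79e-05). The probes used for Gnat1 and Raet1b were each detected on 2 of 4 high cholesterol arrays, so both sizes depend on the background level. The other probe of Gnat1 was detected on no array. A second probe of Raet1b read only -0.50, so the size of its fall rests on 1 probe. Of 2 measured markers of mesothelium and other tissues 1 fell, Ela1, a pancreatic elastase. It stood at 8.10, 7.88, 8.35 and 8.20 on high cholesterol, against 11.91, 10.68, 10.76 and 10.72 on chow, and fell by 2.88 ± 0.26 (adjusted p = 6.10e-05).

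Of the 8366 genes tested, 113 were detected on all 4 high cholesterol arrays and on no chow array, and 101 the other way round (214 together). Detection in 1 group alone follows the detection cut, and not all of these genes passed limma's test. Gpatch3, detected on chow alone, was at least 1.01-fold lower and was not called (adjusted p = 0.244). After Gpnmb, the brightest of the 113 were Akr1b7, an aldose reductase relative (at least 7.91-fold higher, adjusted p = 4.47e-05), Gstm3, Psmd2 (at least 3.95-fold, adjusted p = 3.19e-06), Sprr1a (at least 3.82-fold, adjusted p = 0.00770) and Mmp12. Sprr1a read 6.40, 5.30, 8.12 and 7.77 on high cholesterol, against 4.82, 4.47, 4.46 and 4.47 on chow. The brightest of the 101 were Dct, a melanin enzyme in pigment cells (at least 13.5-fold lower, adjusted p = 1.35e-07), Nudt6 (at least 10.4-fold, adjusted p = 1.09e-07), Mmd2 (at least 5.73-fold, adjusted p = 1.04e-05) and Slc13a2, a dicarboxylate carrier (at least 2.40-fold, adjusted p = 0.000316). Dct read 4.45, 4.63, 4.48 and 4.57 on high cholesterol, against 9.33, 8.93, 8.49 and 8.67 on chow. Some of these genes have further probes, 32 of the 113 and 31 of the 101, and for 6 of those 32 and 12 of those 31 another probe was detected on at least 1 of the 8 arrays. Neither the second probe of Psmd2 nor the other probes of Gpnmb were detected on any array, so these rises rest on 1 probe each.

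**Figure D4:**
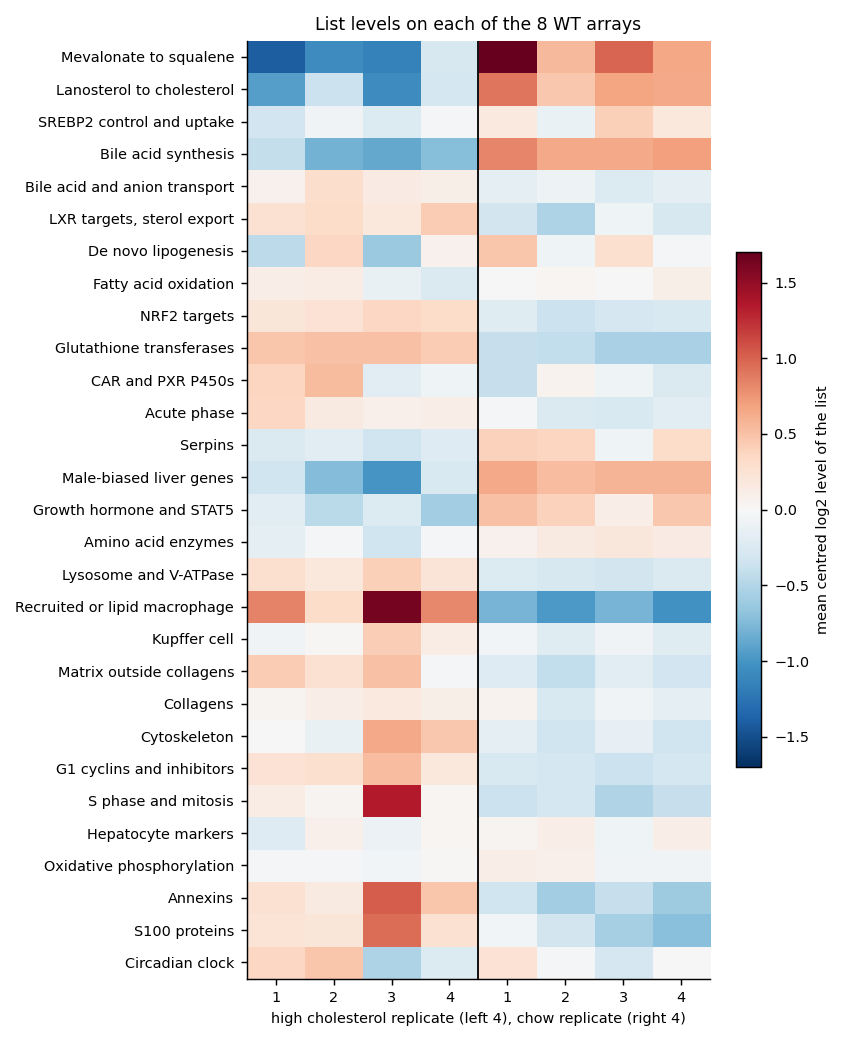
Mean level of each gene list on each of the 8 WT arrays (colour, log2 units, each gene first centred on its mean over the 8 arrays), high cholesterol replicates on the left and chow replicates on the right of the black line. The glutathione transferase row runs from 0.43 to 0.50 on high cholesterol and from -0.55 to -0.39 on chow, while the S phase row reaches 1.35 on high cholesterol replicate 3 and stays between 0.04 and 0.13 on the other 3.

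The 4 high cholesterol arrays were not alike, and whether animals or processing set them apart was not tested. Replicate 3 also had the most detected probes (11088, against 10370 to 10688 in the other 3). Replicate 3 had the highest list level for S phase and mitosis (1.35, against 0.04 to 0.13 in the other 3 and -0.51 to -0.30 on chow), annexins (1.03), S100 proteins (0.95) and recruited or lipid macrophages (1.62, against 0.32 to 0.84 in the other 3). Lgals3, a galectin of the macrophage list, rose by 2.95 ± 0.59 (adjusted p = 0.00592) and read 9.86, 8.47, 12.25 and 10.00 on high cholesterol, against 7.48, 7.16, 7.20 and 6.92 on chow. S100a6, a calcium-binding protein of proliferating and duct-like cells among others, read 5.82, 5.96, 9.68 and 5.66 on high cholesterol, against 5.59, 5.09, 5.11 and 4.73 on chow, and was not called (1.65 ± 0.73, adjusted p = 0.133). Ly6d read 6.14, 6.02, 9.81 and 6.17 on high cholesterol, against 4.99, 4.40, 4.82 and 4.38 on chow, and rose by 2.39 ± 0.70 (adjusted p = 0.0328), but the call was lost without chow replicates 1, 2, 3 or 4, at an adjusted p of 0.0580 to 0.0798. Without high cholesterol replicate 3 the difference of Ly6d was 1.45. Without replicate 3 the macrophage list still had 10 of 12 genes called higher.

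Another pattern joined replicates 1 and 3. This pattern and the one after it were read from the array values themselves, were not tested, and are descriptions only. The lanosterol to cholesterol list stood at -0.93 and -1.07 in replicates 1 and 3 and at -0.37 and -0.30 in replicates 2 and 4, against 0.46 to 0.91 on chow. Fatty acid synthesis stood at -0.44 and -0.63 in replicates 1 and 3, and at 0.35 and 0.07 in replicates 2 and 4, against -0.08 to 0.47 on chow. Cyp51, Fdps and Thrsp had this order too, with values given above. The mevalonate to squalene list did not, at -1.40, -1.07, -1.14 and -0.28 in replicates 1 to 4, and Sqle was lowest in replicate 2. A further pattern set replicates 1 and 2 apart from 3 and 4. The clock list stood at 0.36, 0.46, -0.52 and -0.23 in replicates 1 to 4, against -0.28 to 0.24 on chow. Acot3, an acyl-CoA thioesterase, read 8.63, 8.76, 6.43 and 6.64 on high cholesterol, against 7.26, 6.18, 5.81 and 6.14 on chow, and Tef, a clock output factor, read 10.67, 10.55, 9.52 and 9.28 on high cholesterol, against 9.58, 9.68, 9.05 and 9.60 on chow. Neither Acot3 (adjusted p = 0.112) nor Tef (adjusted p = 0.245) was called. The glutathione transferase and NRF2 lists showed no such spread, at 0.43 to 0.50 and 0.21 to 0.36 over the 4 high cholesterol arrays, against -0.55 to -0.39 and -0.37 to -0.21 on chow.

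**Figure D5:**
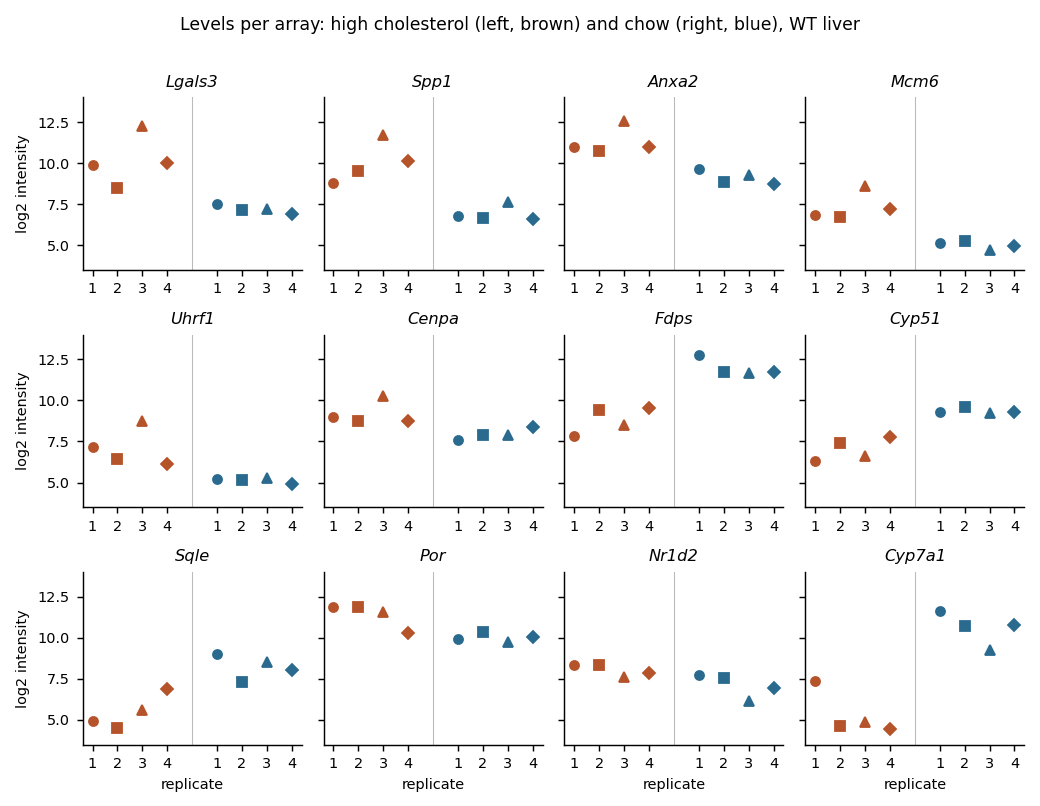
Levels of 12 genes on each array (y axis, log2 intensity), high cholesterol replicates 1 to 4 on the left of each panel and chow replicates 1 to 4 on the right, with 1 marker shape per replicate number. Lgals3, Spp1, Anxa2, Mcm6, Uhrf1 and Cenpa, a centromere protein, are highest in high cholesterol replicate 3, and Fdps and Cyp51 are lower in high cholesterol replicates 1 and 3 than in 2 and 4.

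The diet response was also set against that of the KO livers, with all 16 arrays in 1 fit. On 9265 genes, the KO diets differed in 2559 (27.6%), and the WT response differed from the KO response in 1 gene (0.0108%). That gene was Smpdl3b, whose diet difference was larger in WT by 2.47 ± 0.36 (adjusted p = 0.0222). It read 5.91, 6.65, 5.49 and 5.59 in KO livers on high cholesterol and 5.28, 5.11, 5.29 and 5.02 in KO livers on chow, a difference of 0.74 ± 0.25 (adjusted p = 0.0393). The call was lost without chow replicate 2, 3 or 4 (adjusted p = 0.0657 to 0.0945) and with a replicate block (adjusted p = 0.0641). The number of genes called was 2 without high cholesterol replicate 1 or 2, 9 without high cholesterol replicate 4, and 0 without chow replicate 2, 3 or 4. The diet differences of Cyp8b1 and Cyp7a1 in KO livers were -8.58 ± 0.14 (adjusted p = 1.03e-17) and -5.93 ± 0.61 (adjusted p = 4.63e-06), and the differences between the genotypes' responses had adjusted p-values of 0.386 and 0.798. Gpnmb rose by 1.80 ± 0.41 in KO livers (adjusted p = 0.00376), and its response differed from that in WT by 2.35 ± 0.58 (adjusted p = 0.247), which was not called. Mcm6 differed by 0.17 ± 0.34 between the diets in KO livers (adjusted p = 0.740), and its response differed from that in WT by 2.06 ± 0.47 (adjusted p = 0.233).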

How the data were processed

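Liver RNA of 16 samples was labelled and hybridised to Illumina bead arrays, and 8 of them are compared here. The submitters' processing notes name GenomeStudio 2009.1. The deposited intensities are on a linear scale, and values under 0 and unequal quartiles mark them as background-subtracted and not normalized between arrays. Beside each intensity stands a detection p-value, per the file headers. A second deposited table holds the authors' intensities with nearly equal quartiles on all arrays and was used as an alternative.

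In limma 3.58.1 (R 4.3.3) the exported intensities were corrected with normexp by detection p-value (offset 16), quantile normalized and put on the log2 scale. A probe was kept where its detection p was under 0.05 on at least 4 of the 8 arrays (10972 of 25697), and the brightest kept probe stood for a gene. The 2 diets were compared with limma's moderated test (two-sided) and Benjamini-Hochberg adjustment over 8366 genes, and called at an adjusted p under 0.05. The WT and KO responses were compared by an interaction term over all 16 arrays. Of 18138 gene symbols, 17213 matched RefSeq (2906 through a synonym). Among called genes with several kept probes (348), probes differed in sign for 86. Of 37 named genes with several kept probes, 18 had one whose difference was over 1.5 times larger or smaller, or opposite, and its value is given.

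Named genes were the 15 largest changes in each direction with non-overlapping groups, up to 5 members per list by p, the 10 brightest genes detected in 1 group alone, and a fixed set. Gclm and Pgd were added after their values were seen. Some genes are not reported here. Members and lists were chosen with earlier results of these data known, and members that passed the detection filter need not stand for a whole list. Replicate numbers did not pair the samples: the deviations of same-numbered arrays correlated at -0.116, -0.023, 0.116 and -0.079. None of the 120 pairs of arrays held identical values. The files give no slide, so slide could not be used as a block, and a batch that followed the sample numbers would coincide with diet. The number of arrays, the signal over background and the choice of probe limit the precision. Figures were drawn with matplotlib 3.10.9.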

Additional observations from a re-analysis of the deposited data

Results flagged for a closer look

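Of 338 groups of 4 arrays (169 named genes on 2 diets), 18 held 1 array that stood apart from the other 3 by Dixon's test (5.33%), where chance marks about 1 in 20 groups. High cholesterol replicate 3 was that array in 7 of them. It was high for Anxa2 (12.58, against 10.72 to 11.00 in the other 3), Bst2 (10.81, against 9.99 to 10.11), Cenpa (10.29, against 8.75 to 9.01), Cyp4a14 (8.31, against 5.99 to 6.25), Ly6d (9.81, against 6.02 to 6.17) and S100a6 (9.68, against 5.66 to 5.96). It was low for Hsd17b7 (8.94, against 9.44 to 9.53). High cholesterol replicate 1 was high for Cyp7a1 (7.35, against 4.43 to 4.85), and high cholesterol replicate 4 for Elovl3 (6.47, against 4.48 to 4.76).

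Chow replicate 1 was high for Col1a1 (5.25, against 4.49 to 4.52), Ela1 (11.91, against 10.68 to 10.76), Fdps (12.79, against 11.64 to 11.72), Gstm1 (12.95, against 12.78 to 12.80), Sprr1a (4.82, against 4.46 to 4.47) and Thrsp (12.65, against 10.89 to 11.02). Chow replicate 3 was low for Dusp1 (8.91, against 9.66 to 9.78) and Tef (9.05, against 9.58 to 9.68) and high for Spp1 (7.60, against 6.59 to 6.76). Of these 18 genes, Thrsp, Ly6d and Cenpa lost their call without some single array, and S100a6 and Tef were not called.

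The diet response of Smpdl3b was larger in WT than in KO livers by 2.47 ± 0.36 on the log2 scale (limma interaction term, adjusted p = 0.0222), with the WT high cholesterol arrays above the other 3 groups.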

How the results depend on the processing

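Under 12 other settings the diets differed in 1141 to 2354 genes, apart from the 522 genes (340 higher, 182 lower) that also reached a log2 difference of 1. With probes required on all 8 arrays 1141 of 6800 genes were called (589 higher, 552 lower), fewer genes being tested. All 16 arrays fitted together gave 2354 genes and array weights 2227. With the replicate block 1414 genes were called (799 higher, 615 lower), 1339 of them also called without it, and the comparison of WT and KO responses gave 0 genes, against 1 without the block. No pairing comes from the labels. Leaving out 1 array gave 1172 to 1801 genes, 666 to 968 higher and 506 to 833 lower, the lower count moving most without chow replicate 4 (506) or chow replicate 2 (530). The cause was not tested. The comparison of WT and KO responses then gave 0 to 9 genes. Insig1 was not called under any setting, and leaving out 1 array gave it -0.38 to 0.0935, the value above 0 appearing without high cholesterol replicate 3. Of the 156 called genes named here, 142 were called in every setting that tested them and 14 lost the call in at least 1. Cenpa lost it without chow replicate 1 (adjusted p = 0.0518). Beside the losses given above, calls were lost with no detection filter by Anxa3, Col27a1, Cyp2a5, Ly6d, Pgd and Thrsp (adjusted p = 0.0702 to 0.118), with the replicate block by Pgd (adjusted p = 0.0779) and Thrsp (adjusted p = 0.0519), with a gene's probes averaged by Anxa3 (adjusted p = 0.0810) and Nr1h3 (adjusted p = 0.348), with median scaling by Pgd (adjusted p = 0.0681), and with a variance trend by Ly6d (adjusted p = 0.0839) and Thrsp (adjusted p = 0.116). Thrsp also lost it with array weights (adjusted p = 0.0719) and with detection on all 8 arrays (adjusted p = 0.0533). Of 120 list counts, median scaling moved 23 by over 1.5 times, detection on all 8 arrays 26, no detection filter 24, array weights 22 and all 16 arrays 20, and each of the other 7 settings 5 to 15. Requiring detection on all 8 arrays left 2 of the 4 mevalonate calls and 6 of the 10 macrophage calls, since genes near the background on 1 diet drop out. No other setting moved these 2 counts or the 9 lanosterol calls by over 1.5 times. Genes near the background on 1 diet have differences that depend on the background correction.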
